A study of Mus musculus with 6 samples.

Results

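The genes described here are the matrix and cell-surface metalloproteases of mouse embryonic fibroblasts (MEFs) and the inhibitors that act on them. They were taken by name from the 55565 genes of the deposited count table as the protein-coding members of 4 protease-related families (Mmp, Adam, Adamts and Adamtsl) and of the Timp family. This gave 84 genes, of which 23 were matrix metalloproteases (MMPs), 33 ADAMs, 19 ADAMTS proteases, 5 ADAMTS-like proteins and 4 tissue inhibitors of metalloproteases (TIMPs). A gene was tested when it had at least 10 counts in at least 3 of the 6 libraries, and 45 of the 84 were tested among 14454 genes in all. The question was how their RNA levels differed between wild-type (WT) MEFs and MEFs without a functional Mcm8, a DNA helicase gene.

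Bulk RNA sequencing covered 3 WT libraries (WT1, WT2 and WT3) and 3 Mcm8 knockout libraries (KO1, KO2 and KO3). All MEFs were prepared from embryonic trunks at E13.5, in crosses between Mcm8 heterozygotes on a mixed background of C57BL/6J and ICR, and the KO allele carries a CRISPR-Cas9 deletion that shifts the reading frame. Both genotypes had been immortalized with a lentivirus bearing an SV40 gene and selected with puromycin, and both were grown in DMEM with fetal bovine serum, so these are cell lines and not primary cells. The methods call the 3 libraries of a genotype biological repeats. Whether these were separate embryos, lines or cultures is not said there or in the labels, and all p-values here measure only the spread between these libraries.

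MMPs are zinc-dependent enzymes that together can cut most proteins of the extracellular matrix, and fibroblasts are a main source of them in connective tissue. ADAMs are mostly membrane-anchored and release the outer parts of growth factors, cytokines and adhesion proteins (shedding), while ADAMTS enzymes are secreted and act on proteoglycans, on procollagens and on proteins of microfibrils. TIMPs bind the active site of the enzymes and block it, with Timp1 and Timp2 acting mainly on MMPs and Timp3 also on several ADAMs and ADAMTS enzymes.

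Promoter sequences are shown for 7 changed genes that contrast in role and direction: the procollagen-processing enzymes Adamts2 and Adamts14, the 3 TIMPs, and the proteoglycan-cutting enzymes Adamts1 and Adamts9. Each is the stretch of 200 bases before the transcription start in RefSeq (build GRCm38.p6), written 5′ to 3′ on the strand of the gene. Capitals mark the motifs searched on both strands, which were AP-1 (TGANTCA), SP1 (GGGCGG) and the TATA box (TATAAA), with overlapping matches counted.
Adamts2 (chr11:50601885-50602084, plus strand): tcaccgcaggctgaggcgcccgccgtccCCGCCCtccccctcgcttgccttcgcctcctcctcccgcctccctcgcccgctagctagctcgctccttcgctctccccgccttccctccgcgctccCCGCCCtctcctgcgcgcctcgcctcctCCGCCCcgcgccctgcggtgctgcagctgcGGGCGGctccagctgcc
Adamts14 (chr10:61273420-61273619, minus strand): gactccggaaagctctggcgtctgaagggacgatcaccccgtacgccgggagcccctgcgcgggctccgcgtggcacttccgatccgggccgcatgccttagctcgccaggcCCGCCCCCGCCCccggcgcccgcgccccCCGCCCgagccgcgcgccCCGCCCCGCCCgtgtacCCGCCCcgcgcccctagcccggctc
Timp1 (chrX:20869966-20870165, plus strand): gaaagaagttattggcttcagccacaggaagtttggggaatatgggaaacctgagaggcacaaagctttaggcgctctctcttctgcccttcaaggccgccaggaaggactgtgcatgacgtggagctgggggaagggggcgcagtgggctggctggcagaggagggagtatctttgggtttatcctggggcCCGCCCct
Timp2 (chr11:118355412-118355611, minus strand): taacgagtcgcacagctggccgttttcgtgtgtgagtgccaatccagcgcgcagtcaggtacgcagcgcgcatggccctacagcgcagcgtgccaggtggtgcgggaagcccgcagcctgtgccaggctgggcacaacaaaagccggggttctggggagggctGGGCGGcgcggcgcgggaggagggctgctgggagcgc
Timp3 (chr10:86300212-86300411, plus strand): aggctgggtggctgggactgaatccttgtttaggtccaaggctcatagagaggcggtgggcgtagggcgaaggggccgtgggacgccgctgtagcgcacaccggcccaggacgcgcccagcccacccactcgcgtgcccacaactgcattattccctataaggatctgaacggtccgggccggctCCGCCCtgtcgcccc
Adamts1 (chr16:85803114-85803313, minus strand): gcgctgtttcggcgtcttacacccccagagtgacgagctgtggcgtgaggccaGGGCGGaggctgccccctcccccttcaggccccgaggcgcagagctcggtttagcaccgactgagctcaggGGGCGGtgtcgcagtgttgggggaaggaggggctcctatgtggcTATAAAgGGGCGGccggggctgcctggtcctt
Adamts9 (chr6:92943535-92943734, minus strand): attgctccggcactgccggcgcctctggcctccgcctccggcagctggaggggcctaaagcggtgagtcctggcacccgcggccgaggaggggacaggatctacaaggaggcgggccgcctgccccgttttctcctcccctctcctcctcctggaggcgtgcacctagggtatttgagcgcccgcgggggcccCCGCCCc
All 7 windows held the SP1 letters, from 1 match in the TIMPs and Adamts9 to 4 in Adamts2 and 6 in Adamts14, and Adamts1 alone had the TATA box letters. None of the 7 held the AP-1 letters. Windows with at least 1 SP1 match made up 66.7% of the 30 windows of the tested genes of these families, 39.7% of the 58 windows of all of the 84 genes that had an entry, and 31.0% of the 32851 windows of the whole promoter table. For AP-1 the shares were 3.33%, 17.2% and 5.48%, and for the TATA box 3.33%, 19.0% and 9.96%. Of the 18 genes with changed levels described below, 14 had an entry, and Adam33, Adamts5, Mmp2 and Adamts4 did not. Among these 14, the AP-1 letters stood in a window of Adam19 alone and the SP1 letters in windows of 11, with none in those of Adam19, Adamts12 and Mmp23. G and C made up from 58.0% (Timp1) to 80.0% (Adamts14) of the bases of the windows shown.

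Library totals ran from 12722979 to 21022755 counts. Levels are given as CPM (counts scaled to library size, with TMM factors) for comparisons of a gene between libraries, and as FPKM, the deposited values per gene length, for comparisons between genes. Mcm8 itself (chromosome 2, from 132658061 to 132686117) was at 13.8, 16.6 and 12.7 CPM in WT1, WT2 and WT3 and at 4.20, 4.46 and 4.13 CPM in KO1, KO2 and KO3, with a log2 fold change (KO against WT) of -1.75 and a standard error of 0.15. WT1 stood apart from the other WT libraries: the chi-square of its counts per degree of freedom was 13.7 against WT2 and 12.9 against WT3, compared with 4.34 between WT2 and WT3 and 2.63 to 3.03 between KO libraries. In WT1 short genes were read higher and long genes lower, with median log2 deviations from the mean of the 6 libraries of 0.10 in the shortest and -0.07 in the longest of 3 equal length classes (median gene lengths of 1817 and 7978.5 bases). Calls that changed without WT1 are therefore also given, with the value without WT1 for some genes. Sex-linked genes differed between the genotypes in all libraries, with Xist at 944 to 1359 CPM in WT and 474 to 495 CPM in KO libraries and Y-linked Ddx3y at 6.77 to 8.73 and 38.8 to 48.8 CPM. This difference runs with the genotype, so its part in any of the changes below, on the X chromosome (Timp1) or elsewhere, cannot be told apart from that of Mcm8. The fibroblast markers were all tested (9 of 9) and summed to 24793 to 28969.9 CPM in WT and 28714 to 29529 CPM in KO libraries. Of these markers Thy1 (log2 fold change -1.02), Pdgfrb (-0.74) and Vim (-0.19) were lower in KO (33.3%, beside 6.23% of all genes tested). Another 2 were higher (22.2%, beside 7.92%).

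Within the families, levels per gene length spanned more than 3 orders of magnitude among the tested genes. Timp2 and Timp1 were highest, at mean FPKM values of 129 and 101 in WT and 151 and 126 in KO MEFs. They were followed by Mmp14 (84.5 in WT and 80.0 in KO), Adamts1 (95.7 and 56.3), Adam9 (59.6 and 53.4), Mmp2 (28.9 and 41.1) and Adam10 (36.1 and 33.5). A single gene dominated most families. Adamts1 gave 67.8% of the summed FPKM of the ADAMTS genes in WT and 56.6% in KO, Mmp14 gave 59.5% and 52.2% of the MMPs, Timp2 gave 53.1% and 51.7% of the TIMPs, Adamtsl5 46.2% and 50.5% of the ADAMTS-like genes, and Adam9 39.5% and 37.7% of the ADAMs.

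**Figure D1:**
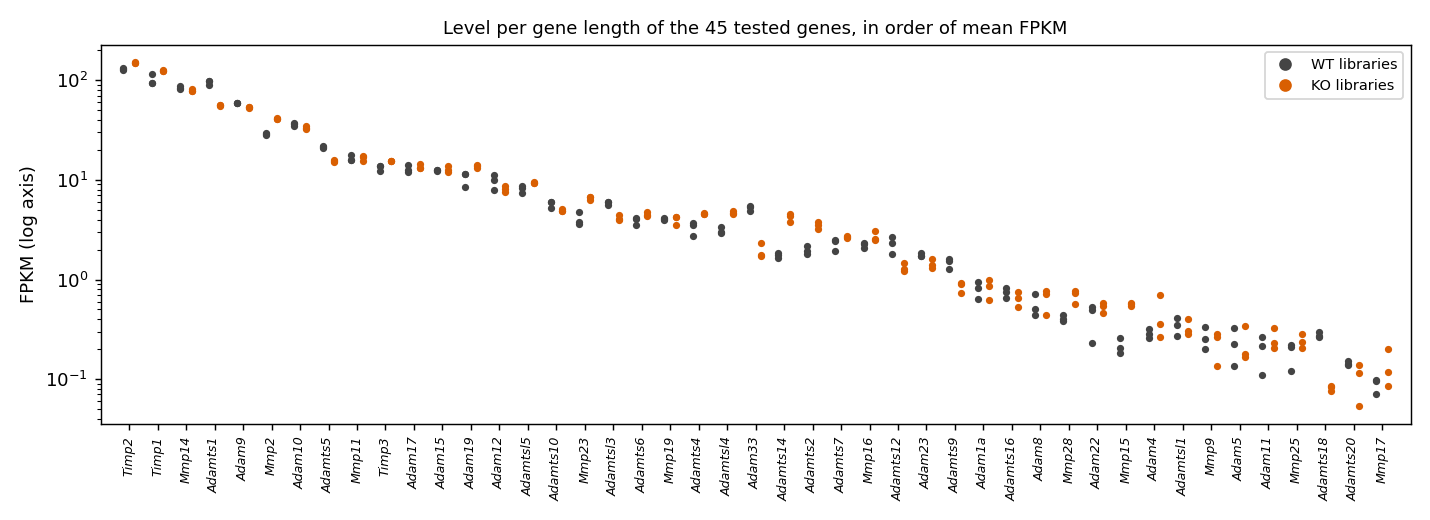
FPKM on a log axis of the 45 tested genes, in order of the mean over all 6 libraries, with 1 point per library (WT dark, KO orange). Timp2, Timp1, Mmp14 and Adamts1 lead the order, and the points of the genotypes separate for genes such as Adamts1, Adam33, Adamts14 and Adamts18.

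Of the 45 genes, 18 differed between KO and WT MEFs at an adjusted p-value below 0.05 (edgeR quasi-likelihood test on the counts, Benjamini-Hochberg adjustment over all 14454 genes tested). In KO MEFs 11 of them were higher (24.4% of the 45, where 7.92% of all genes tested were called higher) and 7 were lower (15.6%, where 6.23% of all genes tested were called lower), and 27 did not pass. When KO1, KO2 or KO3 was left out, 6 were called higher. The median log2 fold change was 0.08 over the 45 genes and -0.00010 over all genes. With an absolute log2 fold change above 1 required as well, Adamts14 and Mmp15 remained on the higher side and Adam33 and Adamts18 on the lower side, beside 2.75% and 0.989% of all genes tested. Only Adam33 also passed a test against a 2-fold change (adjusted p = 0.0330, edgeR). In each of the 18 genes no KO value lay within the range of the WT values. Counting the genes that did not pass the test as well, 16 of the 45 had every KO library above every WT library and 12 had every KO library below (17.4% and 15.7% of all genes tested).

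**Figure D2:**
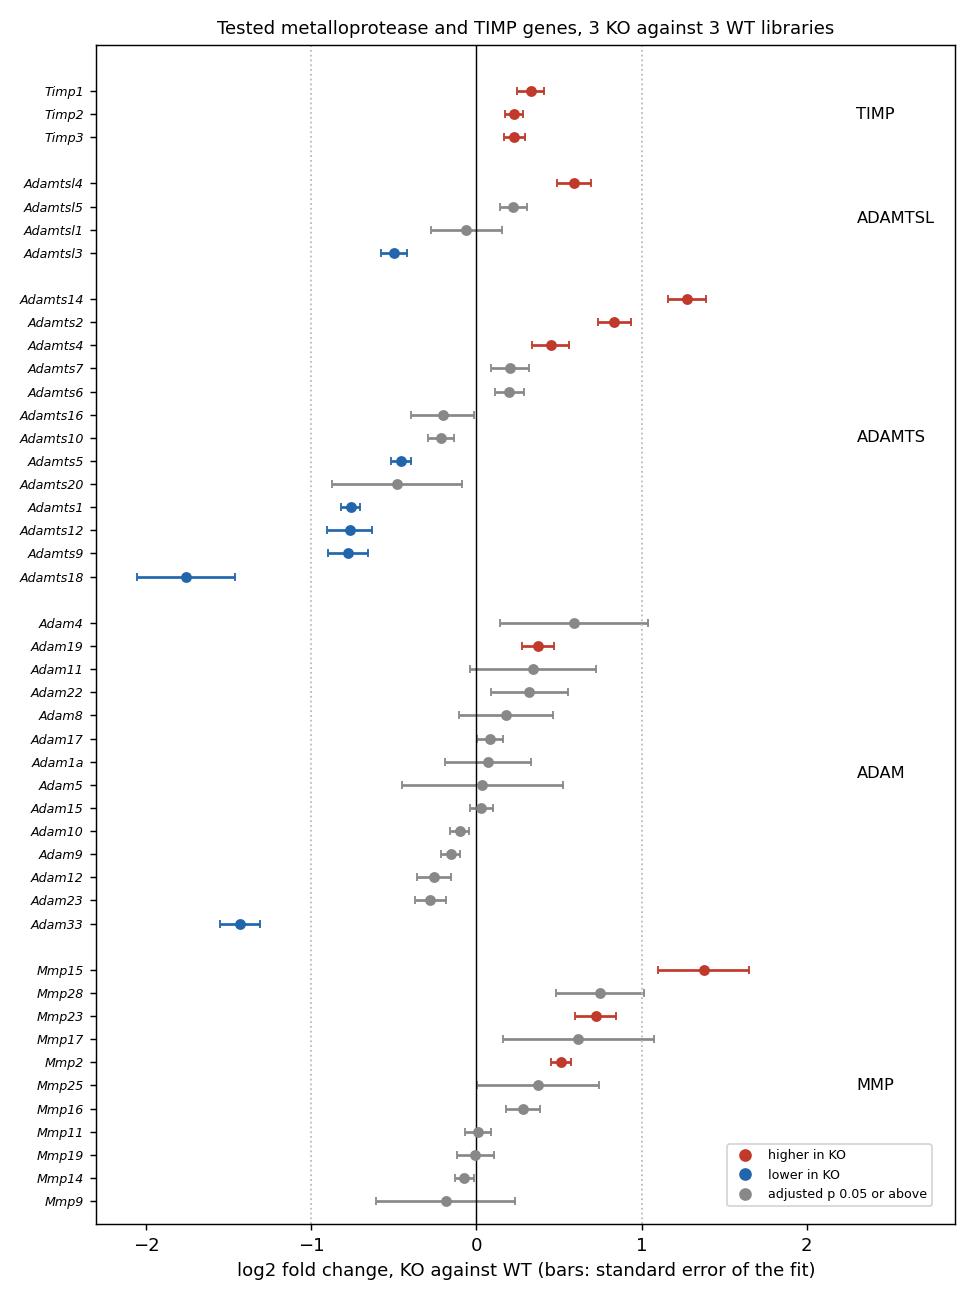
Log2 fold change of KO against WT for the 45 tested genes by family, with bars for the standard error of the fit and dotted lines at -1 and 1. The TIMPs all lie above 0 (0.23 to 0.33), the called MMPs lie above 0, and the ADAMTS genes spread from -1.76 (Adamts18) to 1.27 (Adamts14).

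The ADAMTS proteases moved in both directions. Of the 13 tested, 5 were lower (38.5%, beside 6.23% of all genes tested) and 3 higher (23.1%, beside 7.92%) in KO MEFs. In the proteoglycanase group, enzymes that cut aggrecan, versican and related proteoglycans, 5 of 7 genes were tested, 3 were lower (Adamts1, Adamts5 and Adamts9) and 1 was higher (Adamts4). In the group of procollagen N-proteinases, which remove the amino-terminal propeptides of fibrillar procollagens, both tested genes were higher (Adamts2 and Adamts14). Of 6 tested genes among the other ADAMTS proteases, 2 were lower (Adamts12 and Adamts18).

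Adamts1 (ENSMUSG00000022893, chromosome 16, from 85590715 to 85600001), a secreted protease that cuts versican and aggrecan, had the smallest adjusted p of all 84 genes. It stood at 480.2, 520.1 and 526 CPM in WT1, WT2 and WT3 and at 298, 304 and 299 CPM in KO1, KO2 and KO3. The KO libraries were close to one another and all were far below the lowest WT library. The mean fell from 509 ± 24.8 to 300.0 ± 3.16 CPM (SD, n = 3 each), 59.0% of the WT level, with a log2 fold change of -0.76, a standard error of 0.06 and an adjusted p of 1.10e-06 (edgeR).

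Adamts5 (ENSMUSG00000022894, chromosome 16, from 85653061 to 85698716), an aggrecanase of cartilage and connective tissue, lies 53.06 kb from Adamts1 and was lower as well. Its values were 224, 233 and 239.9 CPM in the WT and 165, 174 and 169.6 CPM in the KO libraries. KO MEFs kept 72.9% of the WT level, a smaller fall than that of its neighbour, with a log2 fold change of -0.46, a standard error of 0.06 and an adjusted p of 0.000125 (edgeR). Adamts9 (ENSMUSG00000030022, chromosome 6, from 92749680 to 92920473), a versican-cutting enzyme, had 19.4, 24.3 and 23.2 CPM in WT and 14.1, 13.7 and 11.1 CPM in KO libraries. All KO values were below the lowest WT value, which was that of WT1, and the log2 fold change was -0.78 with a standard error of 0.12 and an adjusted p of 0.000512 (edgeR).

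Adamts4 (ENSMUSG00000006403, chromosome 1, from 171077990 to 171088206), an aggrecanase closely related in function to Adamts5, went the other way. It was at 17.2, 13.2 and 17.8 CPM in WT and at 22.3, 21.8 and 21.8 CPM in KO libraries, so the ranges did not overlap although WT2 was low. The log2 fold change was 0.45 (standard error 0.11, adjusted p = 0.0161, edgeR). The call was lost when any KO library was left out (adjusted p from 0.0576 to 0.0731, edgeR). Adamts20, the fifth tested member of the group, did not pass.

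The procollagen N-proteinases rose. Adamts14 (ENSMUSG00000059901, chromosome 10, from 61032891 to 61109217) was at 9.13, 8.55 and 9.54 CPM in the WT and at 19.8, 22.5 and 23.9 CPM in the KO libraries. Each KO value was more than 2-fold any WT value. The mean went from 9.07 ± 0.494 to 22.1 ± 2.11 CPM (SD, n = 3 each), 2.43-fold, with a log2 fold change of 1.27, a standard error of 0.11 and an adjusted p of 3.56e-06 (edgeR). Adamts2 (ENSMUSG00000036545, chromosome 11, from 50492911 to 50698400), whose loss causes a fragile-skin disorder in humans and cattle, had 16.8, 18.2 and 20.4 CPM in WT and 30.4, 35.8 and 33.4 CPM in KO libraries. The mean was 1.79-fold higher in KO, with a log2 fold change of 0.83, a standard error of 0.10 and an adjusted p of 5.81e-05 (edgeR). Adamts3, the remaining member, was too low to test, with 1, 1 and 0 counts in WT and 11, 10 and 3 counts in KO libraries.

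Adamts18 (ENSMUSG00000053399, chromosome 8, from 114423758 to 114575370) was the lowest of the called genes in level and had the largest fall. It had 39, 38 and 52 counts in WT and 18, 13 and 14 counts in KO libraries, which is 3.07, 2.71 and 2.77 CPM against 0.850, 0.783 and 0.875 CPM. KO MEFs kept 29.3% of the WT level (log2 fold change -1.76, standard error 0.30, adjusted p = 0.000885, edgeR). Adamts12 (ENSMUSG00000047497, chromosome 15, from 11064876 to 11349317), a protease that can degrade cartilage oligomeric matrix protein, was at 19.7, 29.4 and 25.5 CPM in WT and 16.1, 14.2 and 13.5 CPM in KO libraries. WT1 was the lowest WT library, as for Adamts9, and the log2 fold change was -0.77 (standard error 0.13, adjusted p = 0.00137, edgeR). On the log2(FPKM + 1) scale, which understates changes of low genes, the values were smaller, at -0.24 for Adamts18, -0.48 for Adamts12 and -0.41 for Adamts9, and each still passed with limma.

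The highest ADAMTS genes that did not pass were Adamts10, Adamts6 and Adamts7. Their log2 fold changes were -0.21 (standard error 0.08, adjusted p = 0.0911, edgeR), 0.20 (standard error 0.09) and 0.20 (standard error 0.11). Adamts10, which acts on fibrillin microfibrils, passed without WT1 (log2 fold change -0.28, adjusted p = 0.00618, edgeR), and without WT1 the values of Adamts6 and Adamts7 moved to 0.13 and 0.10.

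**Figure D3:**
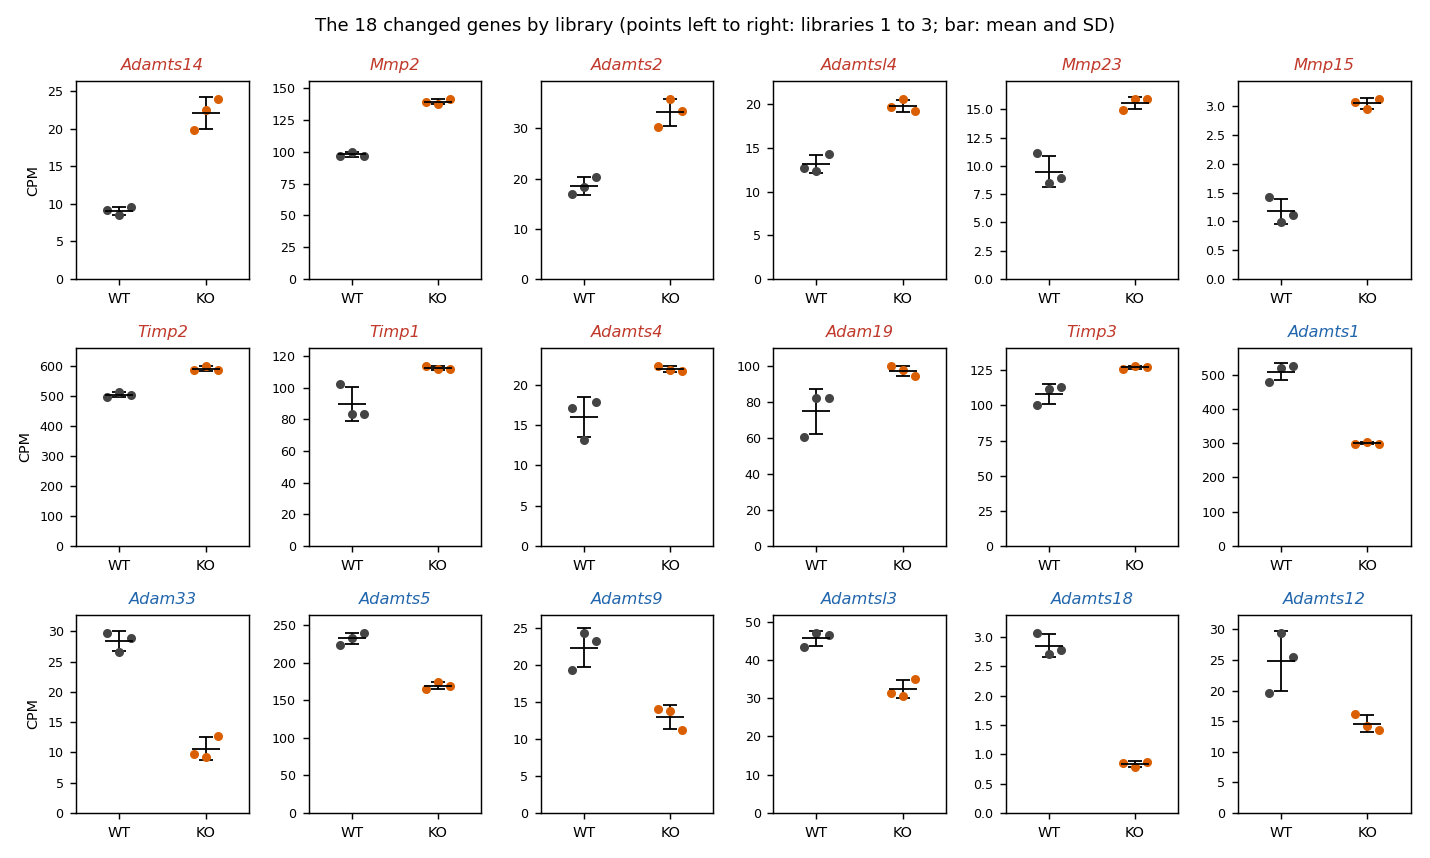
CPM of the 18 changed genes in each library, from 0, with 3 points per genotype for libraries 1 to 3, the mean as a line and the SD as bars. Names in red are genes higher in KO and names in blue are genes lower in KO. In every panel the KO points lie outside the range of the WT points, by a wide margin in Adamts1 and Adam33 and a narrow one in Timp1, Timp3, Adamts12 and Adam19.

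The ADAMTS-like proteins have the domains of the family without the protease domain and bind to microfibrils. Of 4 tested, 1 was higher (25%, beside 7.92% of all genes tested) and 1 lower (25%, beside 6.23%). Adamtsl4 (ENSMUSG00000015850, chromosome 3, from 95583511 to 95595228), a fibrillin-binding protein mutated in dislocated eye lenses, was at 12.7, 12.3 and 14.3 CPM in WT and 19.7, 20.6 and 19.3 CPM in KO libraries, 1.51-fold higher (log2 fold change 0.59, standard error 0.10, adjusted p = 0.00117, edgeR). Adamtsl3 (ENSMUSG00000070469, chromosome 7, from 81984902 to 82263658) was at 43.4, 47.0 and 46.6 CPM in WT and 31.4, 30.7 and 35.0 CPM in KO libraries. KO MEFs kept 70.8% of its WT level, with a log2 fold change of -0.50, a standard error of 0.08 and an adjusted p of 0.000736 (edgeR). Adamtsl5, the highest of the group per gene length, had a log2 fold change of 0.22 (adjusted p = 0.0802, edgeR) and passed without WT1.

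The MMPs that were called were all higher in KO MEFs, 3 of 11 tested (27.3%, beside 7.92% of all genes tested). None was lower, with edgeR or DESeq2, and none with a value below 0 had an unadjusted p below 0.05. Mmp2 (ENSMUSG00000031740, chromosome 8, from 93553919 to 93580048), gelatinase A, which cuts denatured collagen and type IV collagen, was the most abundant of them. Its values were 96.9, 100.2 and 96.4 CPM in WT and 139, 138 and 141 CPM in KO libraries. The spread within each genotype was small beside the difference, and the mean rose from 97.8 ± 2.03 to 139 ± 1.83 CPM (SD, n = 3 each), 1.42-fold, with a log2 fold change of 0.51, a standard error of 0.06 and an adjusted p of 4.58e-05 (edgeR). Mmp9, the other gelatinase, was near 1 CPM in both genotypes and had a log2 fold change of -0.19 with a standard error of 0.42.

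Mmp14 (ENSMUSG00000000957, chromosome 14, from 54669069 to 54682821), the membrane-type protease that activates Mmp2 at the cell surface together with Timp2, did not pass. It was at 486, 503 and 526 CPM in WT and 471, 473 and 495 CPM in KO libraries, ranges that overlapped, with a log2 fold change of -0.07 (standard error 0.06, adjusted p = 0.460, edgeR). Of 5 tested membrane-type MMPs only Mmp15 was called (20%, beside 7.92% of all genes tested called higher), and it was 1 of the low genes. Mmp15 (ENSMUSG00000031790, chromosome 8, from 96078896 to 96101708) had 18, 14 and 21 counts in WT and 65, 49 and 50 counts in KO libraries, or 1.42, 0.998 and 1.12 CPM against 3.07, 2.95 and 3.13 CPM. Its mean was 2.59-fold higher in KO (log2 fold change 1.38, standard error 0.28, adjusted p = 0.00327, edgeR), and on the log2(FPKM + 1) scale the difference was 0.36.

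Mmp23 (ENSMUSG00000029061, chromosome 4, from 155735112 to 155737841), an unusual MMP released from a membrane-bound precursor, was at 11.1, 8.48 and 8.90 CPM in WT and at 15.0, 15.9 and 15.9 CPM in KO libraries. WT1 was the highest WT library, and the KO values lay above it (log2 fold change 0.72, standard error 0.12, adjusted p = 0.00119, edgeR). Mmp11 (stromelysin 3) and Mmp19, after Mmp14 the highest MMPs that did not pass, had mean FPKM values of 16.6 in both genotypes for Mmp11 and 4.08 in WT and 4.04 in KO for Mmp19. Their log2 fold changes were 0.01 and -0.01 with standard errors of 0.08 and 0.11. Mmp28 (log2 fold change 0.75, standard error 0.27, adjusted p = 0.0814) and Mmp16 (0.28, 0.10, adjusted p = 0.0932) were among the values above 0 that did not pass (edgeR), and they are named here after their values were seen.

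The Mmp genes clustered on chromosome 9 between 7272514 and 7699586, which hold the collagenases and most stromelysins, were too low to test in either genotype. Of 10 such genes 5 were at 0 counts in every library, others had counts in some libraries, and none reached the filter. Mmp3 had 4, 20 and 3 counts in WT and 9, 2 and 9 counts in KO libraries, and Mmp13 had 0, 2 and 0 against 5, 1 and 3. In all 39 of the 84 genes were not tested. Of these 20 had no count in any library, 9 had at most 3 counts in every library, and 10 had more than 3 in at least 1. A count of 0 allows a level of up to 3 counts, 0.236 CPM in the smallest and 0.143 CPM in the largest library, as a limit for counting error only. Differences below such levels were not detectable at this depth.

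Of the 14 ADAMs tested, 1 was lower and 1 higher (7.14% each, near the 6.23% and 7.92% of all genes tested), and 12 did not pass. Adam33 (ENSMUSG00000027318, chromosome 2, from 130892511 to 130905734), a membrane protease of mesenchymal cells known as an asthma susceptibility gene, was at 29.7, 26.5 and 28.8 CPM in WT and at 9.68, 9.28 and 12.8 CPM in KO libraries. Every KO value was less than the lowest WT value by more than 10 CPM. The mean fell from 28.4 ± 1.66 to 10.6 ± 1.90 CPM (SD, n = 3 each), 37.3% of the WT level, with a log2 fold change of -1.43, a standard error of 0.12 and an adjusted p of 2.29e-06 (edgeR). Adam33 lies 1.75 Mb from Mcm8 on the same chromosome. Of the 32 tested genes within 2 Mb of Mcm8, Mcm8 not counted, 5 were higher (15.6%, beside 7.92% of all genes tested). Adam33 was among the 4 that were lower (12.5%, beside 6.23%) and had the lowest value. The median log2 fold change of the 32 genes was -0.02. An effect of the Mcm8 loss on Adam33 and one of the chromosome segment inherited with the edited allele cannot be told apart here.

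Adam19 (ENSMUSG00000011256, chromosome 11, from 45946819 to 46038170), a protease that sheds neuregulin 1, was the ADAM called higher. It was at 60.6, 82.3 and 82.0 CPM in WT and at 100.1, 97.6 and 94.4 CPM in KO libraries. WT1 lay well below the other WT libraries, and without it the log2 fold change moved from 0.37 (standard error 0.10, adjusted p = 0.0205, edgeR) to 0.24 (adjusted p = 0.00245, edgeR). The call was lost when any KO library was left out (adjusted p from 0.0652 to 0.0926, edgeR).

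The major sheddases did not pass the test. Adam9 had a log2 fold change of -0.16 (standard error 0.06, adjusted p = 0.0854, edgeR), Adam10, which cuts Notch and the amyloid precursor protein, had -0.10 (standard error 0.06), and Adam17, which releases tumour necrosis factor and ligands of the epidermal growth factor receptor, had 0.08 (standard error 0.08). Adam9 was at 247, 247 and 244 CPM in WT and 217, 221 and 224 CPM in KO libraries, so that its ranges did not overlap, and it passed without WT1 (log2 fold change -0.15, adjusted p = 0.0117, edgeR). Of the 3 tested ADAMs without protease activity (Adam11, Adam22 and Adam23) none passed with edgeR or DESeq2, and Adam23 had an unadjusted p below 0.05. Of the ADAMs known from testis and sperm, 21 were in the table, 14 of them were at 0 in every library, 3 were tested and none passed, with 0 at an unadjusted p below 0.05 in edgeR and 0 calls in DESeq2.

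The TIMPs rose together by small amounts, and all 3 tested were called higher (100%, beside 7.92% of all genes tested). Timp2 (ENSMUSG00000017466, chromosome 11, from 118191895 to 118246566) was at 497, 515 and 503 CPM in WT and at 587, 601 and 588 CPM in KO libraries, a gap of more than 70 CPM between the highest WT and the lowest KO value. Its mean was 1.17-fold higher, with a log2 fold change of 0.23, a standard error of 0.06 and an adjusted p of 0.0124 (edgeR). Timp3 (ENSMUSG00000020044, chromosome 10, from 86136236 to 86185370), the inhibitor that stays bound to the matrix, was at 100.2, 112 and 113 CPM in WT and 126, 128 and 127 CPM in KO libraries (log2 fold change 0.23, standard error 0.07, adjusted p = 0.0316, edgeR). In both genes the KO libraries differed from one another by less than the WT libraries did.

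Timp1 (ENSMUSG00000001131, chromosome X, from 20736405 to 20740974) was at 102, 83.5 and 83.3 CPM in WT and at 114, 112 and 112 CPM in KO libraries. WT1 lay between the other WT libraries and the KO libraries, and the log2 fold change was 0.33 (standard error 0.08, adjusted p = 0.0132, edgeR), or 0.43 without WT1 (adjusted p = 1.72e-06, edgeR). Timp4 had 1 count in KO1 and none elsewhere. All 3 TIMP calls were lost when any KO library was left out (adjusted p from 0.0557 to 0.121, edgeR), and that of Timp1 was also lost without WT3 (0.0644, edgeR). Genes that overlap Timp1 (Syn1), Timp2 (Cep295nl) and Timp3 (Syn3) were at no more than 4.86 CPM in either genotype and none was called.

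Levels were also summed over all members of a family. The sum of the ADAMTS genes was 880.4, 953 and 969.9 CPM in WT and 665, 687 and 673 CPM in KO libraries, a mean of 934 ± 47.6 against 675.0 ± 11.3 CPM (SD, n = 3 each), and so 0.722 of the WT level. The TIMP sum was 699.5, 710.1 and 699.2 CPM in WT and 827, 840.5 and 827 CPM in KO libraries, 1.18-fold higher. The sums of the MMPs (698 ± 19.9 and 728 ± 14.4 CPM) and of the ADAMTS-like genes (102 ± 2.77 and 101 ± 1.74 CPM) differed by less, and those of the ADAMs were 845 ± 31.0 CPM (WT) and 800.5 ± 9.32 CPM (KO). On the CPM scale the ranges of the ADAMTS and TIMP sums did not overlap between the genotypes. Those of the MMP sums were barely apart, with 715.7 CPM as the highest WT and 716.0 CPM as the lowest KO value. Those of the ADAM and ADAMTS-like sums overlapped in CPM. In FPKM, which weighs genes by length, the ranges were clearly apart in the MMPs, ADAMs and ADAMTS-like genes as well. They were 138 to 144 in WT and 151 to 156 in KO libraries for the MMPs, 147 to 153 and 139 to 143 for the ADAMs, and 16.8 to 18.0 and 18.3 to 18.8 for the ADAMTS-like genes. The ratio of the TIMP sum to the MMP sum was 1.03, 1.01 and 0.977 in WT and 1.14, 1.17 and 1.11 in KO libraries. These sums are shares of RNA, given with no test, and in bulk samples fewer cells of a type and less RNA per cell cannot be told apart.

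**Figure D4:**
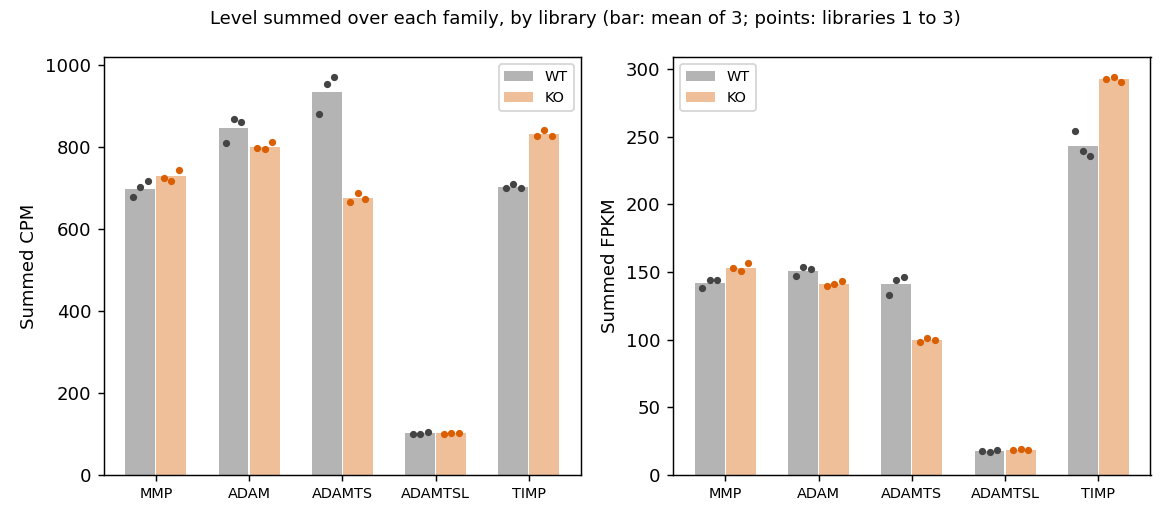
Level summed over each family in CPM (left) and FPKM (right), with bars from 0 for the mean of 3 libraries and points for libraries 1 to 3. The ADAMTS bar is lower in KO (934 against 675.0 CPM) and the TIMP bar higher (703 against 832 CPM) on both scales, while the other families differ little.

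Genes that act on or with the metalloproteases were taken from lists of the pathway. Among activators and regulators of matrix proteases, 22 of 29 genes were tested, 4 were higher and 4 lower (18.2% each, beside 7.92% and 6.23% of all genes tested). Ctsk (cathepsin K, a collagen-cutting cysteine protease) fell from 73.7 ± 3.25 to 35.3 ± 0.143 CPM (log2 fold change -1.06), Fap (fibroblast activation protein) from 8.57 ± 2.26 to 2.66 ± 0.845 CPM (-1.67) and Tll1 (a procollagen C-proteinase) from 89.4 ± 5.47 to 68.6 ± 0.744 CPM (-0.38). Plau (urokinase, which generates plasmin) rose from 27.6 ± 1.78 to 38.9 ± 1.57 CPM (0.49). The adjusted p-values of these named genes were from 2.11e-07 (Ctsk) to 0.00143 (Tll1, edgeR). Of the 22 tested genes of the list, 15 had a log2 fold change above 0. The sum of the list was 4412 to 5155 CPM in WT and 5308 to 5428 CPM in KO libraries.

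Among 16 tested matrix substrates of these enzymes, 6 were higher in KO MEFs (37.5%, beside 7.92% of all genes tested). Only 1 was lower (6.25%, near the 6.23% of all genes tested). The lower one was Bgn (biglycan, a small proteoglycan), from 1758 ± 79.7 to 1241 ± 14.4 CPM (log2 fold change -0.50, adjusted p = 3.48e-05, edgeR). Acan (aggrecan, the main substrate of Adamts4 and Adamts5) rose from 5.16 ± 0.399 to 11.3 ± 0.991 CPM (1.12), Col4a1 (type IV collagen) from 263 ± 15.4 to 348 ± 9.01 CPM (0.40) and Col3a1 (type III collagen) from 1135 ± 35.2 to 1387 ± 22.0 CPM (0.29). Their adjusted p-values were 9.31e-05, 0.000549 and 0.00258 (edgeR). The sum of the substrate list was 24256 to 29823 CPM in WT and 29831 to 30621 CPM in KO libraries, and its genes Col1a1, Col1a2, Col3a1 and Fn1 are also among the fibroblast markers.

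Of the 15 tested substrates of sheddases, 4 were higher (26.7%, beside 7.92% of all genes tested) and 2 lower (13.3%, beside 6.23%). Jag1, a Notch ligand, fell from 47.1 ± 5.52 to 24.0 ± 1.62 CPM (log2 fold change -0.97). Hbegf, a growth factor shed by Adam17 and other ADAMs, rose from 21.7 ± 1.48 to 35.1 ± 0.953 CPM (0.69), Cd44, the hyaluronan receptor, from 356 ± 5.91 to 451 ± 12.2 CPM (0.34), and Cx3cl1, a membrane-bound chemokine, from 6.65 ± 1.14 to 12.5 ± 1.48 CPM (0.90). Their adjusted p-values ran from 1.10e-05 (Jag1) to 0.00106 (Cx3cl1, edgeR). Of 15 tested transcription factors known to act on MMP and TIMP promoters, the AP-1 and ETS families and Runx2, 4 were higher (26.7%, beside 7.92% of all genes tested) and 3 lower (20%, beside 6.23%). The lower ones were the ETS factors Etv1 and Ets1 and Runx2. The higher ones were the AP-1 factors Junb, Fosl2 and Jund and the ETS factor Ets2 (log2 fold change 0.25, adjusted p = 0.0281, edgeR). The remaining 8 did not pass. Junb (from 32.5 ± 0.535 to 59.8 ± 2.92 CPM, log2 fold change 0.88), Fosl2 (0.59) and Jund (0.36) rose, and the ETS factor Etv1 fell from 11.2 ± 0.537 to 2.85 ± 0.355 CPM (-1.98), with adjusted p-values from 1.36e-06 (Etv1) to 0.00820 (Jund, edgeR).

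Markers of other cell types were read beside these changes. The epithelial markers summed to 0.570 to 1.26 CPM in WT and 5.66 to 6.75 CPM in KO libraries, with Esrp1 at 0. Only Krt18 and Krt8 of these 7 reached the filter, and both needed their KO libraries for it (8, 4 and 15 counts of Krt18 and 0, 0 and 1 of Krt8 in WT). Both were called higher, but a marker this low in WT could be tested only if it was higher in KO. The mesothelial markers summed to 6.42 to 7.40 and 49.3 to 56.1 CPM, with 2 of 6 tested and both higher, mostly through Msln (2.88 ± 0.163 and 44.9 ± 3.04 CPM), and Lrrn4 at 0. The cartilage and bone markers summed to 14.7 to 16.8 and 36.5 to 37.6 CPM, with 2 of 3 tested genes higher (Sox9 and Acan) and Ibsp and Matn1 at 0. The neural crest and glial markers summed to 22.1 to 24.0 and 33.5 to 36.6 CPM, with 2 of 3 tested genes higher and Sox10 and Foxd3 at 0. Macrophage markers, which matter here because macrophages also make MMPs and ADAMs, summed to 5.44 to 6.84 and 6.88 to 8.40 CPM, with Adgre1 at 0 and neither of the 2 tested genes called, and no tested endothelial or muscle marker (1 each) was called. None of these 4 genes had an unadjusted p below 0.05 in edgeR or was called by DESeq2. For comparison, 7.92% of all genes tested were called higher in KO. The part of these marker differences in the protease results was not tested.

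Leaving out WT1 kept all 18 calls in the same direction and added 5, Adam9, Adam12, Adam23 and Adamts10 on the lower side and Adamtsl5 on the higher side, for 12 higher and 11 lower. The adjusted p of Adam12 and Adam23 with all libraries was 0.127 and 0.0634 (edgeR). Without WT1 the log2 fold change moved from -0.77 to -0.90 for Adamts12 and from -0.78 to -0.87 for Adamts9. It moved from 0.72 to 0.84 for Mmp23, from 1.38 to 1.51 for Mmp15 and from 0.23 to 0.18 for Timp3. A correction of the counts for gene length, added after the data had been seen, also kept the 18 calls and gave 24 in all, the same 5 and Mmp16. On log2 FPKM values with limma (pseudocount 1 or 0.1), the calls of Adamts4, Adam19 and Timp3 were lost, with adjusted p-values from 0.0589 to 0.0857.

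**Figure D5:**
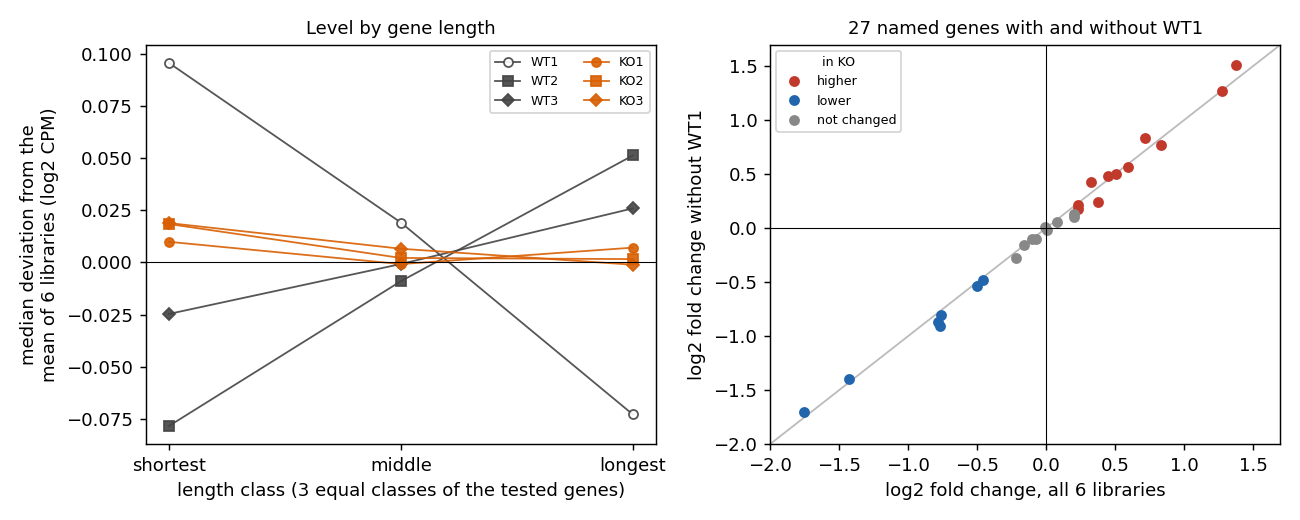
Left, median deviation of each library from the mean of the 6 libraries (log2 CPM) in 3 equal classes of the tested genes by gene length, where WT1 runs from 0.10 in the shortest to -0.07 in the longest class, WT2 runs the other way from -0.08 to 0.05, and the KO libraries stay near 0. Right, log2 fold change of the 27 named genes with all libraries and without WT1, which lie close to the line of equal values.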

How the data were processed

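Per the labels and methods, RNA was extracted with TRIzol, and NEBNext Ultra libraries were read from both ends. The authors aligned the reads with HISAT2 2.0.5 and counted them per gene with featureCounts 1.5.0-p3, and deposited raw counts and FPKM values (counts per gene length and library size) for 55565 genes. Whether strand was used is not given in the sources used here. The submitters' processing notes name GRCm38 and mm10, the methods an Ensembl release on GRCm39. Positions are those of the deposited tables, which differ from GRCm38, while promoter positions are GRCm38.p6, and the sets were never joined by position.

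From the deposited counts, levels were computed as CPM with TMM factors (0.987 to 1.01), and KO was tested against WT with edgeR 4.0.16 (glmQLFit and glmQLFTest, R 4.3.3) on all 6 libraries, without covariates, over the 14454 genes with at least 10 counts in at least 3 libraries. A gene was called changed at a Benjamini-Hochberg adjusted p-value below 0.05 and a DEG with an absolute log2 fold change above 1 as well. The prior degrees of freedom were 9.42 and the common biological coefficient of variation 0.0768. Values after ± are the SD over 3 libraries. The smallest two-sided p of an exact permutation test with 3 libraries a group is 0.1. The scripts were tested on simulated data.

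Alternatives were DESeq2 1.42.0, RLE scaling, filterByExpr (14332 genes), an FPKM above 0 in at least 1 library (26898 genes), a robust prior, a test against a 2-fold change, limma 3.58.1 on log2(FPKM + 1) or log2(FPKM + 0.1), omission of each library in turn, the replicate number as a block, and, added after the data had been seen, a gene length correction. Libraries of the same number did not deviate together (correlations of -0.02, -0.01 and 0.05), so the samples were treated as unpaired. No pair of libraries agreed within sampling noise, and every library entered the reported values. The 84 genes and all lists were chosen with earlier results of these data known. Genes named were Mcm8, every called member, of the MMPs, ADAMs and ADAMTS proteases the 3 highest in FPKM that did not pass, every TIMP, and of each other list at most the 4 called genes with the smallest adjusted p and a mean of at least 1 CPM; others were named after their values were seen. The text names no value of the authors' own comparisons.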

Additional observations from a re-analysis of the deposited data

How the results depend on the processing

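Of the 18 calls, DESeq2, RLE scaling, filterByExpr, the robust prior and the replicate block (paired by number, 18 calls, all shared) each kept all 18, and an FPKM above 0 in at least 1 library gave 20, with Adam12 and Adam23 added. Both limma fits gave 15, without Adam19, Adamts4 and Timp3. With each library left out in turn, from 6 to 12 members were higher and from 7 to 11 lower. The count of 6 came without any 1 of the KO libraries, and the count of 11 without WT1 and also with the gene length correction. DEGs numbered 0 higher and 1 lower both with limma on log2(FPKM + 1), where the pseudocount exceeds the level of the low genes, and in edgeR's test against a 2-fold change. On the higher side of that 2-fold test, Adamts14 and Mmp15 had an unadjusted p below 0.05 (edgeR). On its lower side, Adamts18 had an adjusted p of 0.175, smaller than the 0.222 of Adamts14 (edgeR). Over all genes, 1145 higher and 901 lower calls became 730 and 485 without KO1, 528 lower without KO2, 730 and 487 without KO3 and 1575 lower without WT1, and 397 and 143 DEGs became 97 and 41 with limma and 124 and 28 in the 2-fold test. In summed FPKM, the log2 ratio of KO to WT was 0.11 for the MMPs (0.06 in CPM), 0.093 for the ADAMTS-like genes (-0.0059 in CPM) and 0.27 for the TIMPs (0.24 in CPM). No called value changed sign in the 16 settings. The cause of these moves was not tested. Genes with few counts are limited by depth, and 39 of 84 could not be tested.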
